A study of Oryza sativa Japonica Group with 4 samples.

Results

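*DOF1* and *HAP3F* are the rice genes described here, a Dof zinc finger gene and a gene of the NF-Y subunit family, on arrays of roots given ammonium nitrate. They are 2 of the 17905 genes that the annotation of the array links to a probe set, and 3 of the 57194 rice probe sets read them. Both were chosen because an earlier look at these same arrays had called them higher after ammonium nitrate. Their change is therefore given as a description, without a test. They were set beside every other gene whose name or synonym begins HAP2, HAP3, HAP5, NF-Y or DOF. Names of this kind were found for 16 genes including *DOF1* and *HAP3F*, and 15 of these have a probe set. *HAP5C* is named without one. Family members that carry no such name in the gene tables were not analysed here.

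Seedlings of the japonica cultivar TNG67 were grown in hydroponics without nitrogen until they were 17 days old, so the plants of both groups were N-starved. They were then moved for 30 min to solution without nitrogen (−N) or with 1.43 mM NH4NO3 (+N). Each group had 2 biological replicates with the numbers 1 and 2, and the total RNA of each went to 1 Affymetrix Rice Genome Array, on which a probe set is a group of short probes for 1 transcript and its brightness is given as an intensity. Whether the replicates came from separate cultures is not stated, so any p-value measures the spread between these arrays.

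Dof proteins are plant transcription factors with a single zinc finger that binds DNA at AAAG cores. In maize, Dof1 is known as an activator of genes for carbon metabolism that feed nitrogen assimilation. NF-Y is a complex of a HAP2 (NF-YA), a HAP3 (NF-YB) and a HAP5 (NF-YC) subunit, which binds CCAAT boxes. HAP3 and HAP5 pair through their histone folds, and HAP2 reads the DNA. Plants carry several genes for each subunit, and in rice some HAP3 genes act in chloroplast development and in the timing of flowering.

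The intensity of *HAP3F* (LOC4343856, also named NF-YB10, chromosome 7) was 202 and 157 on the −N arrays of replicates 1 and 2, and 636 and 687 on the +N arrays. Both +N values lay above both −N values, without overlap. *HAP3F* was 3.71-fold higher in +N roots, a log2 change of 1.89, which was 3.15-fold in replicate 1 and 4.38-fold in replicate 2. On the log2 scale the −N arrays had a mean of 7.47 ± 0.26 (SD, n = 2) and the +N arrays one of 9.37 ± 0.08 (SD, n = 2). Of the 17905 genes, 57 had a larger increase.

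*DOF1* (LOC9267486, chromosome 4) is read by 2 probe sets, and both were brighter in +N roots. The gene tables give it no rice locus identifier, so whether it is the Dof gene that the study lists was not settled. The study reports rapid induction of its Dof gene in these roots, on the arrays and by quantitative RT-PCR. The brighter probe set of *DOF1* gave 167 and 248 on the −N arrays and 436 and 513 on the +N arrays, again without overlap. Its increase was 2.32-fold, a log2 change of 1.22, with 2.61-fold in replicate 1 and 2.07-fold in replicate 2. The log2 means were 7.67 ± 0.40 (SD, n = 2) in −N and 8.89 ± 0.17 (SD, n = 2) in +N. This probe set is of the x type, whose probes can also bind other transcripts. The dimmer probe set of *DOF1*, which is not of that type, had intensities of 55.0 and 82.0 in −N and of 176 and 210 in +N roots. It was 2.86-fold higher, a log2 change of 1.52, with 3.20-fold in replicate 1 and 2.57-fold in replicate 2. The dimmer probe set showed the larger fold of the pair, and both showed the larger fold in replicate 1. Whether binding of other transcripts bears on this difference was not tested. By its brighter probe set *DOF1* had 155 genes with a larger increase.

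**Figure D1:**
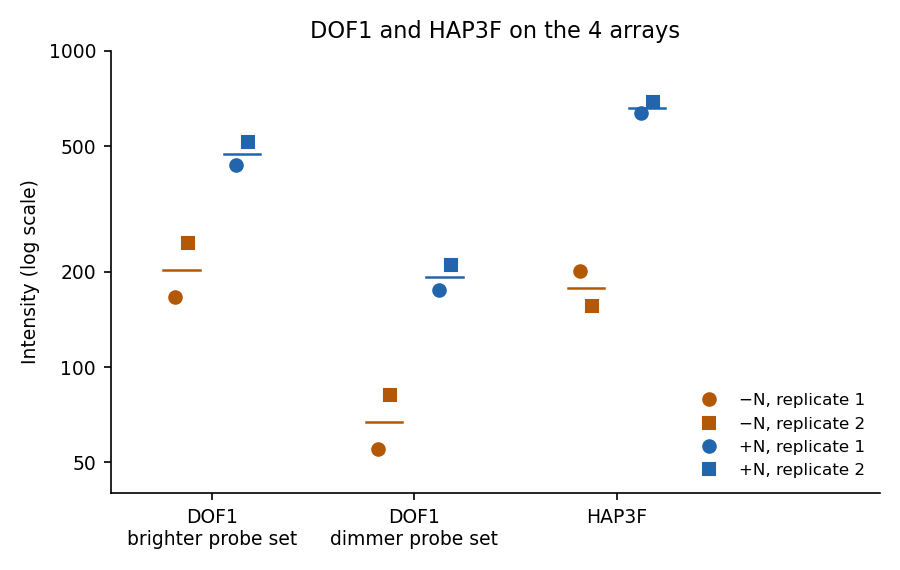
Intensity (log scale) of both probe sets of DOF1 and of the probe set of HAP3F on each of the 4 arrays. Circles are replicate 1, squares replicate 2, and the bars are the means of the log2 values in −N and +N. In each of the 3 probe sets both +N arrays lie above both −N arrays, from 157 and 202 to 636 and 687 for HAP3F.

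The arrays of replicate 2 were brighter than those of replicate 1, and *HAP3F* and *DOF1* differed in how they followed this. Over the probe sets brighter than the median the median ratio of replicate 2 to replicate 1 was 1.40 in −N and 1.34 in +N. For *DOF1* the same ratio was 1.48 in −N and 1.18 in +N by its brighter probe set. For *HAP3F* it was 0.775 in −N and 1.08 in +N. The −N level of *HAP3F* was thus lower on the brighter of both −N arrays, while that of *DOF1* was higher there. Bringing the arrays to a common median left the increases at 2.36-fold for *DOF1* and 3.77-fold for *HAP3F*.

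*DOF1* and *HAP3F* were the 2 of 15 measured Dof and NF-Y genes called at an increase of at least 2-fold with an unadjusted p under 0.05 in limma, and 0 were called lower. Among all 17905 genes, each read by its brightest probe set, 1.01% were called higher and 0.0223% lower by the same rule. Since the members were picked by this call, nothing is read from their count. With 1 array left out, the log2 change of *DOF1* was lowest without −N replicate 1, at 0.93, and that of *HAP3F* without −N replicate 2, at 1.71. With p-values adjusted by the Benjamini-Hochberg method over the 57194 probe sets, 0 of the 17905 genes passed in limma, against 394 with an unadjusted p under 0.05. The smallest two-sided p that an exact permutation test can reach with these 4 arrays is 0.333.

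Of the 13 other genes, 0 were called in either direction, and 0 had an unadjusted p under 0.05 in limma, where 2.2% of all genes had one. After quantile normalization *DOF2* and *HAP3H* had one, 0.0135 and 0.0272 in limma, with log2 changes of 0.47 and -0.50 that stayed under 2-fold. The share of all genes with one in that setting was not taken, so nothing is read from this count. The median log2 change of the 13 genes was 0.03, between -0.52 and 0.54, beside a median of 0.02 over all genes. Both +N arrays were above both −N arrays for 3 of the 13 genes and below them for 0, while this was so for 9.29% and 5.15% of all genes. The 95% intervals of these changes were wide, so an unchanged level was not shown for any of them. Those of 7 of the 13 genes reach past a 2-fold change in at least 1 direction.

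**Figure D2:**
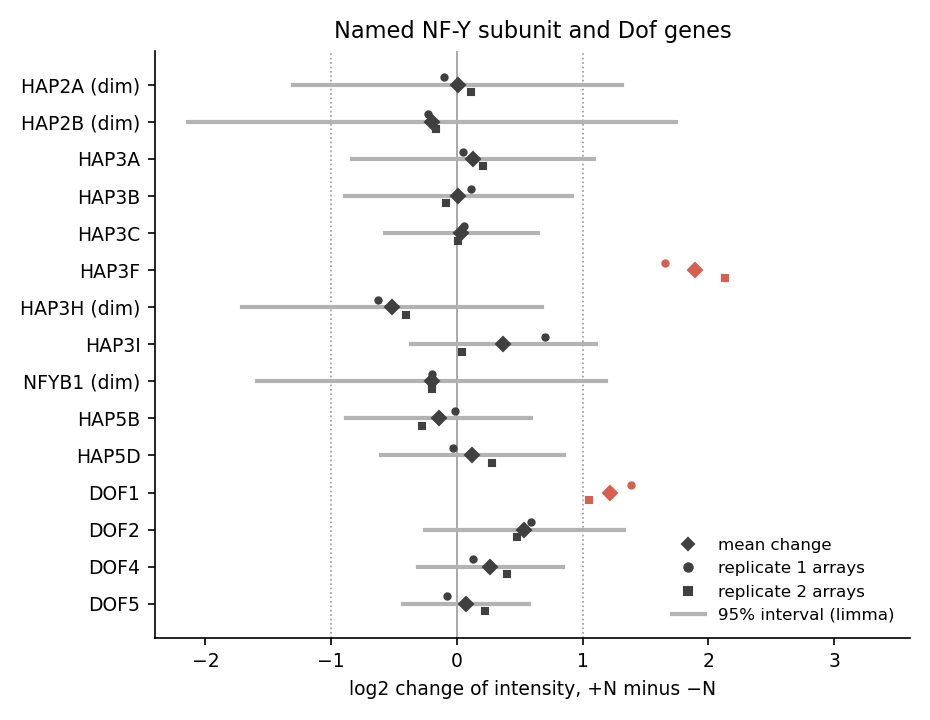
log2 change of intensity (+N minus −N) of the 15 measured NF-Y subunit and Dof genes, each by its brightest probe set. Diamonds are the mean change, small circles and squares the change within replicates 1 and 2, grey bars the 95% interval from limma (not drawn for DOF1 and HAP3F, in red), dotted lines a 2-fold change, and "dim" marks genes whose mean is not above the median of all probe sets. The 13 other genes lie between -0.52 and 0.54, and DOF1 and HAP3F at 1.22 and 1.89.

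In the HAP3 family, the subunit to which HAP3F belongs, *HAP3A*, *HAP3B* and *HAP3C* were bright, and their intensities with and without nitrogen overlapped. These genes act in chloroplast development in rice. *HAP3A* had 720 and 982 on the −N arrays and 746 and 1131 on the +N arrays, a log2 change of 0.13 (standard error 0.32, 95% interval -0.83 to 1.09, unadjusted p = 0.714 from limma). *HAP3B* had 1072 and 1603 in −N and 1158 and 1508 in +N, with a log2 change of 0.01 (standard error 0.30, 95% interval -0.89 to 0.91). *HAP3C* had 461 and 565 in −N and 479 and 570 in +N, with a log2 change of 0.03 (standard error 0.20, 95% interval -0.57 to 0.64). In all 3 the replicates of a group lay farther apart than the means of the groups.

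*HAP3I* lay near the median of the array, with 17.8 and 19.9 in −N and 28.9 and 20.5 in +N roots. Its groups did not overlap, but the log2 change of 0.37 (limma's standard error 0.25 and unadjusted p 0.220) rested on the +N array of replicate 1, since it was 0.70 in replicate 1 and 0.04 in replicate 2. Its probe set is of the s type, which can read several transcripts. *HAP3H*, also named DTH8, Ghd8 and Hd5 and known for delaying heading in long days, was dim. It had 20.4 and 30.2 in −N and 13.2 and 22.7 in +N, a log2 change of -0.52 that did not pass (standard error 0.40, 95% interval -1.71 to 0.67, unadjusted p = 0.275 from limma). *NFYB1*, which acts in the filling endosperm, was also dim, between 6.87 and 13.8 on the 4 arrays.

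Of the genes for the partner subunits of HAP3, the 2 HAP5 and 2 HAP2 genes measured here showed no call. Of the HAP5 genes, *HAP5B* had 503 and 700 in −N and 497 and 579 in +N roots, with a log2 change of -0.15 (standard error 0.24, 95% interval -0.88 to 0.59). *HAP5D* had 847 and 958 in −N and 829 and 1161 in +N, with a log2 change of 0.12 (standard error 0.24, 95% interval -0.61 to 0.85). In both genes the groups overlapped. The HAP2 genes, whose proteins give the complex its contact with CCAAT, were read by dim probe sets. *HAP2A* lay between 12.8 and 23.3 and *HAP2B* between 7.52 and 19.3 over the 4 arrays, and in each the arrays of replicate 2 were above those of replicate 1 in both groups. Whether HAP2 transcripts were present could not be settled at these intensities.

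Among the Dof genes, *DOF2* was the nearest to *DOF1*, with 201 and 277 in −N and 303 and 387 in +N roots. The groups did not overlap, yet the 1.45-fold difference stayed under the 2-fold threshold and did not pass (log2 change 0.54, standard error 0.26, 95% interval -0.26 to 1.33, unadjusted p = 0.126 from limma). It was 1.51-fold in replicate 1 and 1.40-fold in replicate 2. At 1.45-fold, *DOF2* had the largest increase of the 13 other genes, below *DOF1* at 2.32-fold. *DOF4* had 1146 and 1201 in −N and 1254 and 1587 in +N, also without overlap, with a log2 change of 0.27 (standard error 0.19, 95% interval -0.31 to 0.84, unadjusted p = 0.252 from limma). *DOF5* had 250 and 213 in −N and 237 and 249 in +N, with overlapping groups and a log2 change of 0.07 (standard error 0.17).

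**Figure D3:**
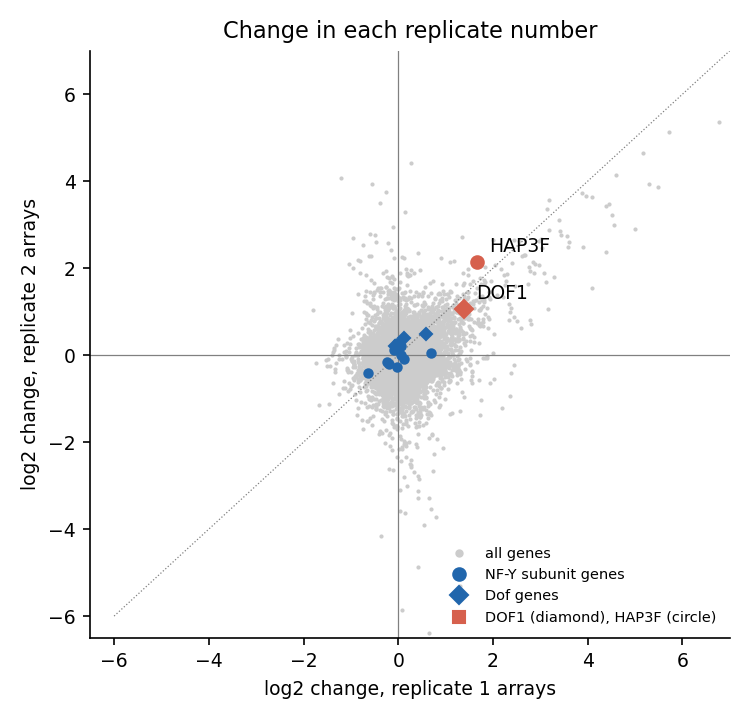
log2 change (+N minus −N) in replicate 1 (horizontal axis) and in replicate 2 (vertical axis), for all 17905 genes in grey and the 15 measured NF-Y subunit (circles) and Dof genes (diamonds). HAP3F, at 1.65 and 2.13, lies above the dotted line of equal change and DOF1, at 1.38 and 1.05, below it.

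Further lists were drawn by gene name, for nitrate-response regulators, carbon skeleton supply and a flowering module. Of their measured genes 0 were called, beside 1.01% of all genes called higher and 0.0223% lower. On the list of nitrate-response regulators the names sought for LBD, BT, HRS1 and HHO genes matched 0 genes, so these are not covered. The paper reports genes for LBD37 and LBD38 homologs as rapidly induced in these roots. The 4 genes that were measured had a median log2 change of 0.31. Among them *NLP3*, a gene of the NIN-like proteins that carry the primary nitrate response, had 578 and 935 in −N and 1302 and 1563 in +N roots. This was a 1.94-fold difference (log2 change 0.96, limma's standard error 0.32 and unadjusted p 0.0493), just under the fold threshold, and the gene was singled out after its value was seen. *NLP1* had a log2 change of -0.40 and *NLP2* one of -0.11. *NIGT1*, a nitrate-inducible repressor gene, was dim, with a log2 change of 0.73 (limma's standard error 0.31 and unadjusted p 0.0889).

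For carbon skeleton supply, the process linked to maize Dof1, 4 genes were matched, of which *ETR2* entered through a synonym and is an ethylene receptor gene. The pyruvate orthophosphate dikinase gene *PPDKB* had 153 and 282 in −N and 163 and 259 in +N roots, a log2 change of -0.01 (standard error 0.45). The changes on this list lay between -0.29 for *PPDK2* and 0.38, which was that of *ETR2*, while *OsPK1* had 0.04. The probe set of *PPDK2* is of the x type, whose probes can also bind other transcripts. The names sought for phosphoenolpyruvate carboxylase genes matched 0 genes. In the flowering module that NF-Y shares with CCT-domain proteins, 5 genes were matched and 4 of them were measured, *HAP3H* among these. The log2 changes of the 4 measured genes lay between -0.52 and 0.15. *Hd1* and *Hd3a*, a CCT-domain gene and a florigen gene, did not exceed an intensity of 7.99 on any array. Of 7 names sought for Dof genes known by other names, 0 were matched.

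The named genes whose 4 values were most like those of *DOF1* and *HAP3F* are given as a description. Both were chosen by these same values, so the nearest genes could only be others with an increase. Likeness was the Euclidean distance between the log2 values of the 4 arrays, each gene centred on its own mean, over 2089 other named genes brighter than the median. Nearest to *DOF1* were *OsZIP4*, a zinc transporter gene, at 0.22, *CIPK1*, a kinase gene of calcium signalling, at 0.25, and the *bHLH* gene LOC4343984 at 0.25. *OsZIP4* had 116 and 153 in −N and 321 and 387 in +N roots. Nearest to *HAP3F* were *SAT4*, a serine acetyltransferase gene of cysteine synthesis, at 0.29, *CIPK16*, another kinase gene of calcium signalling, at 0.36, and *APR-like1* at 0.37. *SAT4* shared with *HAP3F* a −N array of replicate 2 below that of replicate 1, with 319 and 227 in −N and 825 and 835 in +N. The distance between *DOF1* and *HAP3F* was 0.95, so that *HAP3F* had rank 222 by likeness to *DOF1*, and *DOF1* rank 21 by likeness to *HAP3F*. With 4 arrays, any pair of genes with a similar increase comes out alike.

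**Figure D4:**
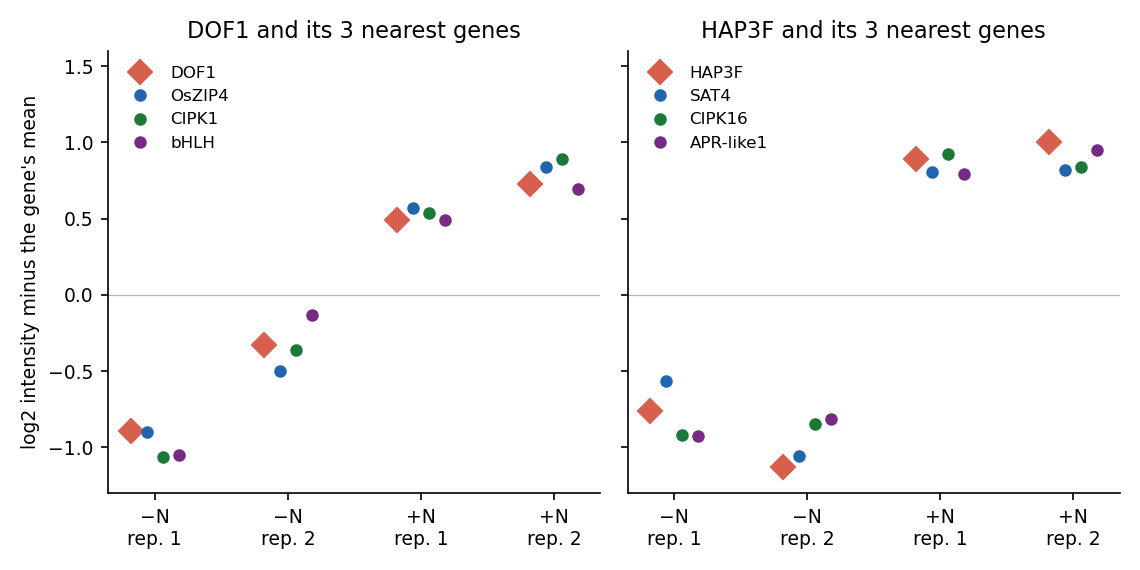
log2 intensity minus the mean of each gene on the 4 arrays, for DOF1 (left) and HAP3F (right) as diamonds and the 3 nearest named genes of each as circles. The distances are 0.22, 0.25 and 0.25 for DOF1 and 0.29, 0.36 and 0.37 for HAP3F. The nearest genes of DOF1 share its higher −N value in replicate 2, which is common on these arrays. The median −N ratio of replicate 2 to replicate 1 was 1.40 over the probe sets brighter than the median.

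The tissue label and the arrays were checked over marker lists. Of 7 measured root genes 5 were brighter than the median of all probe sets, with the silicon transporter gene *Lsi1* between 7224 and 9869, while *SCR1* and *YSL15* were dim. Of 3 leaf photosynthesis genes 2 were bright as well. *CAB2R* lay between 7870 and 11216, *RBCS-C* had 304 and 1303 in −N and 878 and 873 in +N roots, and *RBCS1* lay between 3.97 and 5.49. Summed over the 3 leaf genes the intensity was 8178 and 12523 in −N and 10227 and 11954 in +N, with overlapping groups, and 0 of them were called. Most of this sum is *CAB2R*, and *RBCS-C* was 2.89-fold higher in +N in replicate 1 and 0.670-fold in replicate 2. The probe set of *RBCS-C* is of the x type and can also bind other transcripts. The part of leaf or other tissue in the values of *DOF1* and *HAP3F* was not tested. In whole roots, more transcript per cell and more cells of a type that carries it cannot be told apart.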

How the data were processed

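The authors deposited a linear intensity for each probe set, with 1 column per array. GCOS and RMA are listed in the submitters' processing notes. The sources used here do not give how the values were normalized, and the levels of the arrays differ. From them, 187 control probe sets were left out, values below an intensity of 5.16 (the 5th percentile) were set to it, and log2 values were taken. +N was compared with −N with limma 3.58.1 in R 4.3.3, with group as the only term, over 57194 probe sets, of which 22436 are linked to 1 gene, 95 to several and 34663 to none. A gene with several probe sets was read by the brightest. The paper's 2-fold and p under 0.05 thresholds were used, the p without adjustment. Gene names come from the platform's annotation and from a RefSeq table (assembly ASM3414082v1). The number of arrays limits the precision. Detection calls were not used here, and "dim" means a mean not above the median of all probe sets. The fit was tested on simulated data.

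Members and lists were chosen with earlier results of these data known. The text names every matched Dof and NF-Y gene, the 3 nearest genes of each, and list members changed at least 2-fold, of which there were 0. Other list members were named after their values were seen. Alternatives were 2 other normalizations, a filter on dim probe sets, an offset of 16, trend and robust moderation, a replicate block, leaving out each array, other call rules and other probe set rules. Figures were drawn with matplotlib 3.10.9.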

Additional observations from a re-analysis of the deposited data

How the results depend on the processing

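*DOF1* and *HAP3F* stayed higher in +N under every alternative run, with log2 changes from 0.93 to 1.52 and from 1.71 to 2.08. Both were chosen by their call on these arrays, so these log2 changes and counts that include them support nothing. The filter on dim probe sets, the moderation and the replicate block cannot move a log2 change. The count of called family genes was 2 as reported, 1 or 2 with 1 array left out, where the lone array of a group is assumed to vary like the other group, 1 at a fold threshold of 3 and 0 after Benjamini-Hochberg adjustment. *DOF1* fell out without −N replicate 1 (log2 change 0.93), +N replicate 1 (1.33) or +N replicate 2 (1.10). The 13 other genes gave 151 fits under alternatives, with 0 calls. In 17 of them the sign was opposite to that reported, and 4 genes (*DOF2*, *DOF4*, *HAP3H* and *HAP3I*) kept their sign throughout. The filter, the moderation, the replicate block and the probe set rules left the log2 changes of the 13 genes as they were. The 151 fits thus include many in which the sign could not turn.

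Of all probe sets, 266 were called higher and 8 lower. The lower count became 35 after median centring, 14 after quantile normalization, 18 with dim probe sets left out and 3 with the offset. Thresholds of 1.5 and 3 gave 517 and 110 higher and 56 and 0 lower, and adjustment gave 0 and 0. Leaving out 1 array gave from 159 to 543 higher and from 5 to 413 lower. Such a fit sets arrays of different brightness against each other. The arrays share a replicate number without a stated pairing. Their replicate differences correlated at 0.56 between the groups across probe sets, and with a replicate block 294 were called higher and 15 lower, with unadjusted p of 0.0172 for *DOF2* and 0.0285 for *HAP3H* in limma, both under 2-fold. The cause of these shifts was not tested, and the share of all genes with an unadjusted p under 0.05 with the block was not taken. With 2 arrays per group, the intervals of 7 of the 13 other genes still allow a 2-fold change.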
